A study of Mus musculus with 16 samples.

Results

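The genes described here mark T lymphocytes and natural killer (NK) cells. They are 36 genes chosen by name: subunits of the T cell receptor complex, its coreceptors, other surface proteins, signalling adaptors, cytokine receptors, transcription factors and cytotoxic effectors. Each gene was read from the probe set, a group of short probes to one transcript, that the array's annotation gives to that gene alone. Where a gene had several such probe sets, the one with the highest mean was used. Of the 36 genes, 34 had a probe set of their own, out of 12394 genes measured in this way, while Lck and Il2rg had none in the table used here and were not analysed.

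T cells recognise peptides through a receptor that signals through the CD3 subunits, helped by the coreceptors CD4 and CD8. The kinase Zap70 binds the phosphorylated CD3 chains and phosphorylates the adaptor Lat, which starts transcription of cytokine and activation genes. NK cells lack this receptor and share their granzymes and perforin with cytotoxic T cells, and cytokine receptors that use the common gamma chain signal in both lineages through STAT5, the protein altered in these mice.

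The arrays came from mice of FVB/N background. Mammary tumours with STAT5ca, a constitutively active STAT5, gave 7 arrays, tumours with STAT5Δ750, a STAT5 truncated at its C terminus, gave 6, and normal mammary glands gave 3. The labels do not say which promoter drove the transgenes, whether the glands carried one, the age or stage of the mice, the histology of the tumours, which gland was taken or whether each array came from another mouse. P-values therefore measure only the spread between these arrays. Levels are the deposited MAS5 signals, a linear intensity, and a change is a difference of group means of log2(signal + 8), which understates the change of dim genes. An error after a change is the standard error of the limma fit to all 12394 genes, and p-values were adjusted over all of these genes within a comparison, with a threshold of 0.05.

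Several arrays stood apart from their group. The summed signal of 11 mammary epithelial genes was 235% to 415% of the gland mean on 12 tumour arrays but 11.6% on STAT5ca_177, where Krt8, a keratin of luminal epithelium, had a signal of 25.3, and the 16 macrophage and dendritic cell genes there summed to 396%. The 17 B cell genes summed to 55.7% of the gland mean on STAT5ca_124, to 101% on STAT5Δ750_254 and to between 2.81% and 21.7% on the 11 remaining tumours. Most of the sum on STAT5Δ750_254 came from Ighm and Jchain, with signals of 7836 and 6508.5, above every gland. Cd79a and Ms4a1 stood there at 222 and 305.5, against 413 to 932 and 477 to 857 in glands. The beta-actin 3'/5' signal ratio, a sign of RNA integrity, was 3.23 ± 1.56 in STAT5ca tumours, 2.16 ± 0.86 in STAT5Δ750 tumours and 1.16 ± 0.09 in glands (SD, n = 7, 6 and 3). The signal of Stat5a was 103 to 610 in STAT5ca tumours, 98.6 to 587 in STAT5Δ750 tumours and 392.3 to 683 in glands, but whether its probe set reads the transgene transcripts is not given, so it does not check the labels.

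Most T and NK cell genes were lower in both kinds of tumour than in normal gland. In STAT5ca tumours 27 of the 34 were lower and 0 were higher at the adjusted threshold, where 11.1% of all genes were lower and 4.71% higher. In STAT5Δ750 tumours 27 were again lower and 0 higher, where 11.2% of all genes were lower and 5.41% higher. The median change of the 34 genes was -3.05 in STAT5ca tumours and -3.01 in STAT5Δ750 tumours, against a median over all genes of -0.03 in each comparison. All 34 changes had a negative sign in both comparisons, which share the 3 gland arrays. In these bulk samples, fewer T and NK cells and less of these RNAs per cell cannot be told apart.

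**Figure D1:**
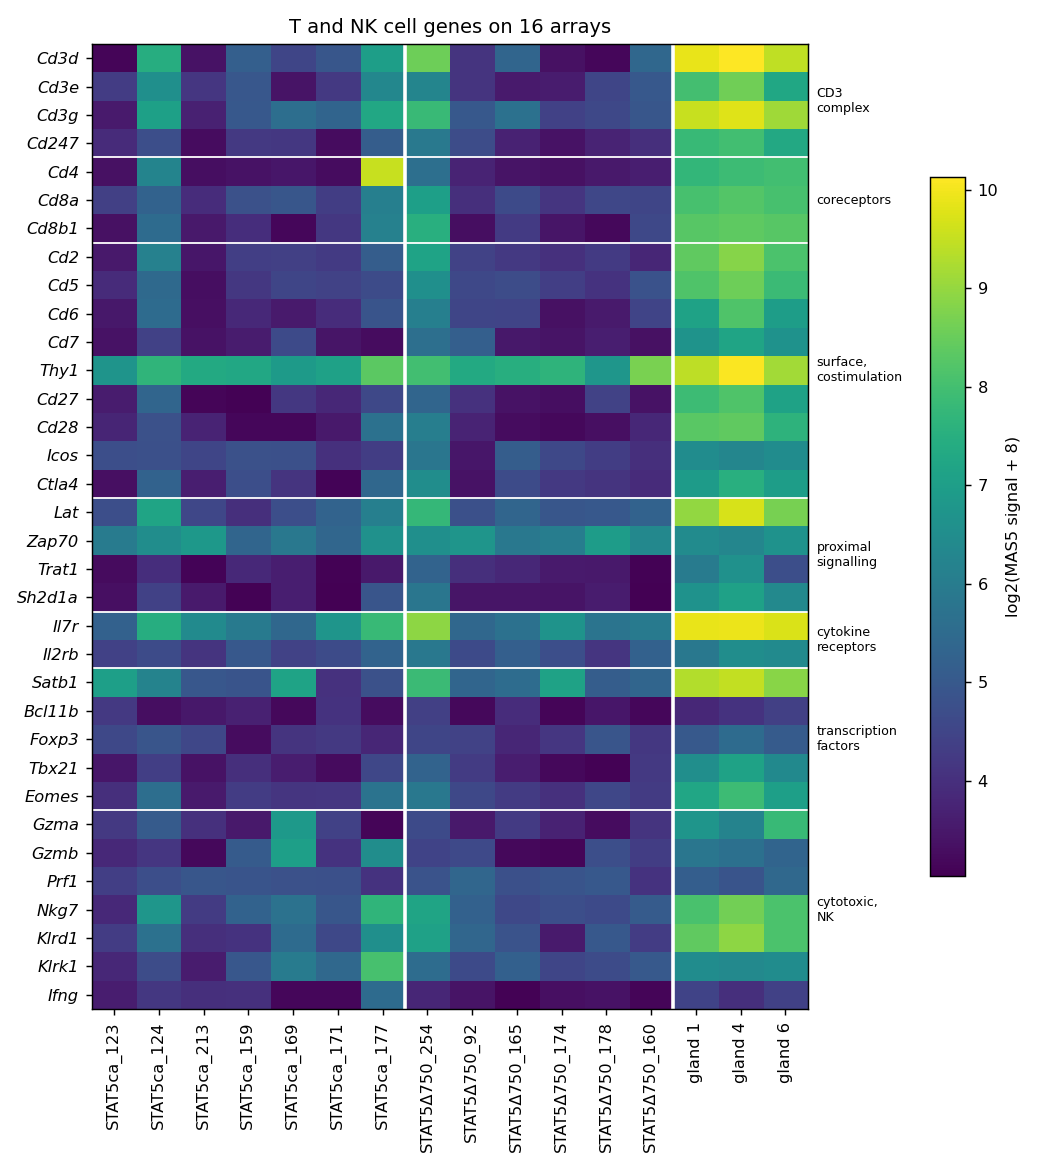
Log2(signal + 8) of the 34 measured T and NK cell genes (rows, by role) on the 7 STAT5ca, 6 STAT5Δ750 and 3 gland arrays (columns); lighter is higher. The gland columns are light for most genes, and STAT5Δ750_254, STAT5ca_124 and STAT5ca_177 are the lightest tumour columns.

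Groups that did not overlap gave a like picture. Every STAT5ca array was below every gland array for 26 of the 34 genes, against 11.7% of all genes, and every STAT5Δ750 array was below every gland array for 29, against 17% of all genes. The summed signal of the 34 genes had a lowest, median and highest value of 524, 628 and 2893 in STAT5ca tumours and of 599, 711 and 3437 in STAT5Δ750 tumours, against 8640, 10979 and 7235 in glands 1, 4 and 6. No tumour array reached the lowest gland, and STAT5ca_177 and STAT5Δ750_254 came nearest to it. With the beta-actin ratio as a covariate, 20 genes were lower in STAT5ca tumours and 26 in STAT5Δ750 tumours, where 6.45% and 9.53% of all genes were lower, and the medians were -3.21 and -3.09. The ratio was 1.76 to 5.38 in STAT5ca tumours, 1.27 to 3.52 in STAT5Δ750 tumours and 1.07 to 1.25 in glands. No tumour overlapped a gland, so fits with this covariate, here and below, cannot fully separate RNA integrity from the group.

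**Figure D2:**
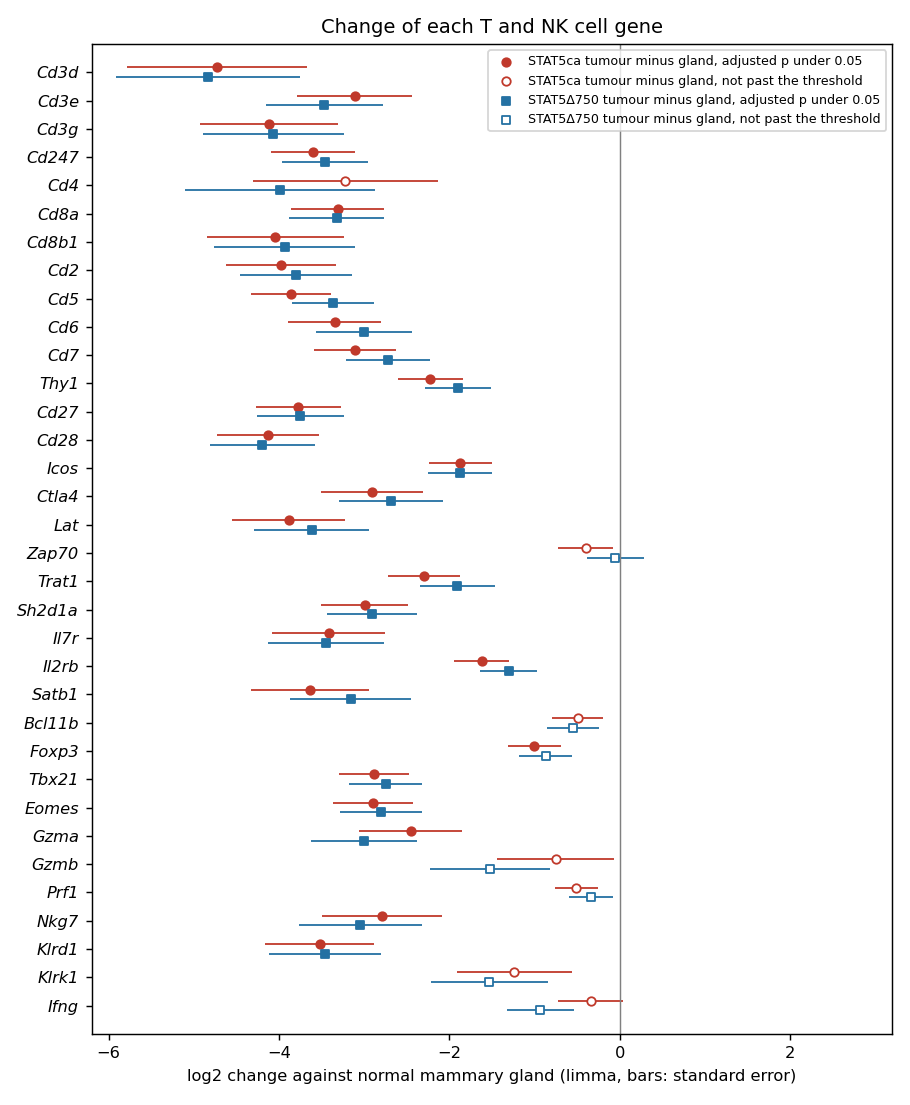
Log2 change of each T and NK cell gene against normal gland, with the standard error of the limma fit as a bar, for STAT5ca tumours (red circles) and STAT5Δ750 tumours (blue squares). Filled symbols passed the adjusted threshold of 0.05; Zap70, Bcl11b, Gzmb, Prf1, Klrk1 and Ifng are open in both comparisons.

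The CD3 complex was lower throughout: all 4 of its measured chains passed in both kinds of tumour, with a median change of -3.86 in STAT5ca and -3.77 in STAT5Δ750 tumours. Cd3d, Cd3e and Cd3g lie together on mouse chromosome 9, and the start sites of Cd3d and Cd3g, transcribed in opposite directions, are 1355 bases apart, while Cd3d and Cd3e start 27825 bases apart. Their promoters are shown because Cd3d had the largest change of the 34 genes in both comparisons and the other chains lie beside it. The windows run from 250 bases before the start site to 50 after it, from RefSeq on build GRCm38.p6, at chr9:44981536-44981835 on the plus strand for Cd3d, chr9:44980382-44980681 on the minus strand for Cd3g and chr9:45009562-45009861 on the minus strand for Cd3e. Capitals mark matches to CAGGTG (an E-box), CAGGAAG (an ETS motif) and TTCNNNGAA (the STAT-type element), on either strand.
Cd3d: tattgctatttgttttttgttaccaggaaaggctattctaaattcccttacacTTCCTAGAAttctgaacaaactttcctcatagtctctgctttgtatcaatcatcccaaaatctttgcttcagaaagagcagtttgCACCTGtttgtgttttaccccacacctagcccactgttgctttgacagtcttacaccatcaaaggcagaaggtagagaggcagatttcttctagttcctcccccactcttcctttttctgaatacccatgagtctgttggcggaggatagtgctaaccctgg
Cd3g: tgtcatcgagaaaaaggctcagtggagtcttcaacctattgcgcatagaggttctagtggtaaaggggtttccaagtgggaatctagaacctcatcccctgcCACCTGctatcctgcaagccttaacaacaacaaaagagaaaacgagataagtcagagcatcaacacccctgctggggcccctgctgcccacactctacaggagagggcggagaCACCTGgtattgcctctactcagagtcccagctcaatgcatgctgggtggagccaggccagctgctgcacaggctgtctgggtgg
Cd3e: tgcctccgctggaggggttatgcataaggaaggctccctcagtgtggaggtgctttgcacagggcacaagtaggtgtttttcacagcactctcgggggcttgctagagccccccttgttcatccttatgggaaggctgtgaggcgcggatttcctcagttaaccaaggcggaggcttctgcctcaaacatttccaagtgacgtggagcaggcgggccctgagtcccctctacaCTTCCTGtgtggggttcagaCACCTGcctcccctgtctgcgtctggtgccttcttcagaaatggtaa
The E-box letters are in all 3 windows, the ETS letters only in the Cd3e window, and the STAT-type letters only in the Cd3d window.

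Cd3d, which encodes the CD3 delta chain, had a lowest, median and highest signal of 0.8, 22.7 and 166 in STAT5ca tumours and of 0.9, 20.9 and 371 in STAT5Δ750 tumours, against 941, 1111 and 685 in glands 1, 4 and 6. No tumour array overlapped the glands, and the highest were STAT5Δ750_254, STAT5ca_124 and STAT5ca_177. Its change was -4.73 ± 1.06 in STAT5ca tumours (adjusted p = 0.0058) and -4.83 ± 1.08 in STAT5Δ750 tumours (adjusted p = 0.0061). With the beta-actin ratio as a covariate the STAT5ca change was -4.46 (adjusted p = 0.0815). Cd3g, the gamma chain, ran from 3.8 through 31.7 to 150 in STAT5ca tumours and from 13.3 through 23.1 to 222 in STAT5Δ750 tumours, against 730, 875 and 545 in glands 1, 4 and 6. Its change was -4.12 ± 0.81 (adjusted p = 0.0023) in STAT5ca tumours, which the beta-actin covariate left at -3.73 (adjusted p = 0.0567), and -4.07 ± 0.83 (adjusted p = 0.0034) in STAT5Δ750 tumours. Again no tumour array reached the glands.

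Cd3e, the epsilon chain, and Cd247, the zeta chain that carries most of the signalling motifs, fell as well. The Cd3e change was -3.11 ± 0.67 (adjusted p = 0.0046) in STAT5ca and -3.47 ± 0.69 (adjusted p = 0.0028) in STAT5Δ750 tumours. For Cd247 it was -3.60 ± 0.49 (adjusted p = 0.00011) and -3.46 ± 0.50 (adjusted p = 0.00026) in the same order. Cd247 has 4 probe sets, and the one used had gland signals of 151 to 245. The one with the lowest mean over all arrays, with gland signals of 4.4 to 17.7, changed by -0.84 (adjusted p = 0.117) in STAT5ca tumours. In STAT5Δ750 tumours it changed by -0.46 (adjusted p = 0.425). A probe set with gland signals of 32.6 to 47.6 changed by -2.11 and -1.80 in the same order. The last, with gland signals of 5.8 to 7.9, changed by -0.01 and -0.18.

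The coreceptors differed in one respect. Cd8a and Cd8b1, the chains of CD8 on cytotoxic T cells, passed in both comparisons, and Cd4, the coreceptor of helper T cells, passed in STAT5Δ750 tumours but not in STAT5ca tumours. Cd8b1 had a lowest, median and highest signal of 1.0, 7.5 and 63.5 in STAT5ca tumours and of 1.1, 6.85 and 173 in STAT5Δ750 tumours, against 303, 320.1 and 303 in glands 1, 4 and 6. Its change was -4.04 ± 0.81 (adjusted p = 0.0026) and -3.93 ± 0.83 (adjusted p = 0.0041) in the 2 kinds of tumour, and that of Cd8a was -3.31 ± 0.55 (adjusted p = 0.00060) and -3.32 ± 0.56 (adjusted p = 0.00082). No tumour array reached the gland range for either CD8 gene.

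Cd4 had a lowest, median and highest signal of 1.6, 2.5 and 729 in STAT5ca tumours and of 2.2, 3.9 and 41.8 in STAT5Δ750 tumours, against 206, 232 and 244 in glands 1, 4 and 6. STAT5ca_124 stood at 68.0 and the 5 lowest STAT5ca tumours at 3.1 or less. STAT5ca_177 was the highest of all 16 arrays, 2.99 times the highest gland, and the other 12 tumour arrays were below every gland. The change was -3.22 ± 1.09 in STAT5ca tumours (adjusted p = 0.0556) and -3.99 ± 1.11 in STAT5Δ750 tumours (adjusted p = 0.0221). Without STAT5ca_177 the STAT5ca change was -4.04 (adjusted p = 0.00023), and without STAT5ca_124 it passed as well (adjusted p = 0.0449). In STAT5Δ750 tumours the change stayed at -4.06, -3.98 and -3.94 without gland 1, gland 4 or gland 6, and at -4.04 with the beta-actin covariate, but the adjusted p was then 0.0725, 0.0865, 0.0705 and 0.0537. The second Cd4 probe set, with gland signals of 4.9 to 27.8, changed by -0.79 (adjusted p = 0.400) in STAT5ca and by -1.27 (adjusted p = 0.141) in STAT5Δ750 tumours, and STAT5ca_177 was again its highest array, at 65.0. The Cd4 difference between the 2 kinds of tumour, tested directly, was 0.77 with a 95% interval of -1.09 to 2.63.

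**Figure D3:**
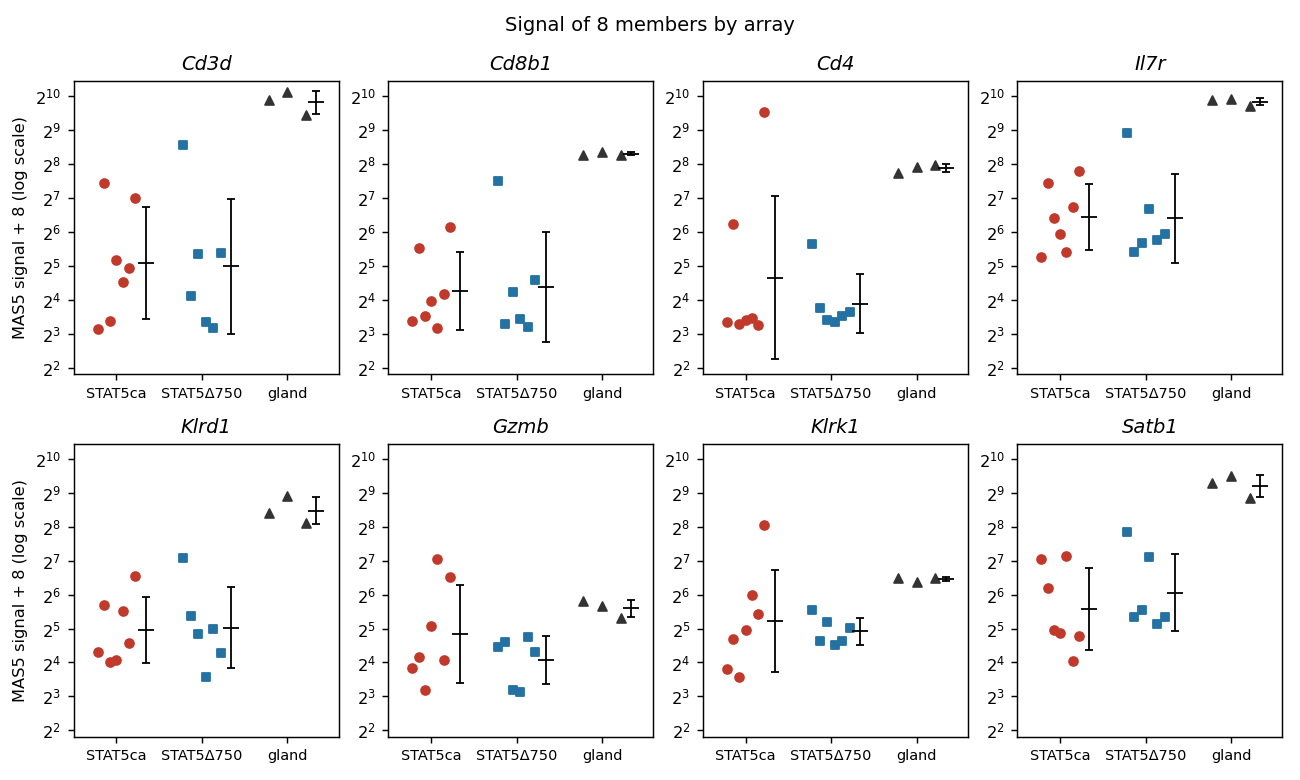
MAS5 signal plus 8 on a log axis for 8 of the genes, by array, for STAT5ca tumours (red circles), STAT5Δ750 tumours (blue squares) and glands (black triangles); the horizontal mark and bar give the mean and SD of the log2 values. STAT5ca_177 lies above the glands for Cd4, Gzmb and Klrk1, and STAT5ca_169 lies above them, and above STAT5ca_177, for Gzmb.

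All 9 surface proteins and costimulators passed in both comparisons, and none of their tumour arrays overlapped the glands. The median change was -3.35 in STAT5ca and -3.01 in STAT5Δ750 tumours. Cd28, the main costimulatory receptor of T cells, had a lowest, median and highest signal of 0.9, 5.5 and 42.9 in STAT5ca tumours and of 1.1, 3.7 and 59.7 in STAT5Δ750 tumours, against 309.8, 326 and 187 in glands 1, 4 and 6. Its change was -4.13 ± 0.60 (adjusted p = 0.00021) and -4.20 ± 0.62 (adjusted p = 0.00029) in the 2 kinds of tumour. Its second probe set, with gland signals of 8.1 to 13.6, changed by -0.75 and by -0.74, the last not past the threshold (adjusted p = 0.0517).

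Thy1, a surface glycoprotein of T cells that fibroblasts and other cells also carry, kept a signal well above the offset on every tumour array. Its lowest, median and highest signals were 96.4, 147 and 318 in STAT5ca tumours and 101, 182 and 407 in STAT5Δ750 tumours, against 680.2, 1079 and 563 in glands 1, 4 and 6. The change of -2.22 ± 0.38 (adjusted p = 0.00082) in STAT5ca and -1.90 ± 0.39 (adjusted p = 0.0036) in STAT5Δ750 tumours was the second smallest of the 9. The smallest was that of Icos, an inducible costimulator, at -1.87 ± 0.37 (adjusted p = 0.0025) and -1.88 ± 0.38 (adjusted p = 0.0032). Ctla4, an inhibitory receptor for the same ligands as Cd28, changed by -2.91 ± 0.60 and -2.68 ± 0.61. With the beta-actin covariate the STAT5ca changes of Icos and Ctla4 were -1.71 and -2.74 and missed the threshold (adjusted p = 0.0567 and 0.0584).

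The other 5 surface genes lay between these. Cd2, an adhesion receptor, changed by -3.98 ± 0.64 in STAT5ca and -3.80 ± 0.66 in STAT5Δ750 tumours, and Cd27, a costimulatory receptor of the tumour necrosis factor receptor family, by -3.78 ± 0.50 and -3.75 ± 0.51. Cd5, an inhibitory coreceptor of the T cell receptor, changed by -3.86 ± 0.47 and -3.37 ± 0.48 and had the smallest adjusted p of the 34 genes in STAT5ca tumours (4.2e-05). The related Cd6 stood at -3.35 ± 0.55 and -3.01 ± 0.56, and Cd7 at -3.11 ± 0.48 and -2.72 ± 0.49.

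Of the 4 proximal signalling genes measured, 3 passed in both comparisons. Lat, the membrane adaptor downstream of Zap70, had a lowest, median and highest signal of 7.8, 18.9 and 138 in STAT5ca tumours and of 19.0, 26.9 and 207 in STAT5Δ750 tumours, against 499, 827 and 398 in glands 1, 4 and 6. The groups did not overlap, and its change was -3.89 ± 0.66 (adjusted p = 0.00076) and -3.62 ± 0.68 (adjusted p = 0.0019) in the 2 kinds of tumour. Sh2d1a, an adaptor of the SLAM family receptors, changed by -2.996 ± 0.51 and -2.91 ± 0.53, both past the threshold. Trat1, an adaptor associated with the T cell receptor, changed by -2.30 ± 0.43 (adjusted p = 0.0015) and -1.91 ± 0.44 (adjusted p = 0.0070). On STAT5Δ750_254 its signal of 31.5 overlapped gland 6. The Trat1 call in STAT5Δ750 tumours was lost without gland 4, whose signal was 90.5 against 55.1 and 18.8 on glands 1 and 6; without it the change was -1.49 (adjusted p = 0.0709).

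Zap70 did not follow its group, and its 2 probe sets disagreed. The brighter one, used by the rule, had a lowest, median and highest signal of 33.0, 54.9 and 104 in STAT5ca tumours and of 50.5, 80.2 and 117 in STAT5Δ750 tumours, against 80.1, 70.6 and 93.4 in glands 1, 4 and 6. The groups overlapped: STAT5ca_213, STAT5Δ750_92 and STAT5Δ750_178 were above every gland. Its change was -0.40 ± 0.32 (adjusted p = 0.466) in STAT5ca and -0.05 ± 0.33 (adjusted p = 0.937) in STAT5Δ750 tumours, and the sign of the second turned with median scaling, quantile normalization and the Gapdh covariate. The other probe set ran from 3.3 to 35.8 in STAT5ca and from 1.7 to 67.0 in STAT5Δ750 tumours, against 137 to 184 in glands, and changed by -2.98 (adjusted p = 0.0010) and -2.85 (adjusted p = 0.0020). Which of them follows the Zap70 transcript was not tested.

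Both cytokine receptors were lower. Il7r, the receptor chain for interleukin 7 on naive and memory T cells, is shown with its promoter because its receptor signals through STAT5 and its window holds the STAT-type letters. The window is chr15:9529827-9530126 on the minus strand of GRCm38.p6, from RefSeq, with matches to TTCNNNGAA, CAGGAAG and TGTGGTT (a RUNX motif) in capitals on either strand.
Il7r: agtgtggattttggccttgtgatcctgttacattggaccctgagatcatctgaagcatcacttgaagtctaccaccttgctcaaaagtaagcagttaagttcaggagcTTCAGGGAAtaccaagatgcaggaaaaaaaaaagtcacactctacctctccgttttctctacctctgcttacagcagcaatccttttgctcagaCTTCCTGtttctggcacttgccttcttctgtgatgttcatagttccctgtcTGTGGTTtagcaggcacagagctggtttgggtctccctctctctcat
Its signals had a lowest, median and highest value of 30.1, 77.9 and 215 in STAT5ca tumours and of 34.7, 50 and 474.5 in STAT5Δ750 tumours, against 948, 964 and 832 in glands 1, 4 and 6. No tumour reached the glands, and STAT5Δ750_254 was nearest. The change was -3.42 ± 0.67 (adjusted p = 0.0022) and -3.45 ± 0.68 (adjusted p = 0.0027) in the 2 kinds of tumour, and the second Il7r probe set gave -3.11 and -2.83.

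Il2rb, the beta chain shared by the receptors for interleukins 2 and 15, changed by -1.62 ± 0.32 (adjusted p = 0.0026) in STAT5ca and -1.31 ± 0.33 (adjusted p = 0.0133) in STAT5Δ750 tumours. STAT5Δ750_254, with a signal of 50.6, overlapped gland 1, with 50.2. Without gland 4 or gland 6 the STAT5Δ750 change was -1.18 and -1.23 and missed the threshold (adjusted p = 0.0840 and 0.0587). With the beta-actin covariate the changes of -1.33 in STAT5ca and -1.13 in STAT5Δ750 tumours missed it too (adjusted p = 0.0793 and 0.0594). The second Il2rb probe set changed by -3.22 and -2.88. It was the brighter in glands, with signals of 142 to 258, against 50.2 to 84 for the one used.

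Among the 5 transcription factors, 4 passed in STAT5ca and 3 in STAT5Δ750 tumours. Satb1, a chromatin organiser of T cell development that other tissues also use, had a lowest, median and highest signal of 8.4, 23.2 and 133 in STAT5ca tumours and of 27.0, 35.9 and 224 in STAT5Δ750 tumours, against 625.2, 709.6 and 456 in glands 1, 4 and 6, with no overlap. STAT5ca_123 at 125, STAT5ca_169 at 133 and STAT5Δ750_174 at 130.2 were high for this gene while their CD3 genes summed to 1.10%, 3.27% and 1.05% of the gland mean. The Satb1 change was -3.64 ± 0.70 (adjusted p = 0.0019) in STAT5ca and -3.16 ± 0.71 (adjusted p = 0.0065) in STAT5Δ750 tumours.

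Tbx21 and Eomes, the T-box factors of effector T cells and NK cells, were lower by similar amounts. Eomes ran from 3.6 through 10 to 44.9 in STAT5ca tumours and from 8.1 through 13.3 to 50.3 in STAT5Δ750 tumours, against 144, 230.0 and 122.6 in glands 1, 4 and 6, with no overlap. Its change was -2.90 ± 0.47 (adjusted p = 0.00050) and -2.80 ± 0.48 (adjusted p = 0.00094), and that of Tbx21 was -2.89 ± 0.42 (adjusted p = 0.00018) and -2.75 ± 0.43 (adjusted p = 0.00044). Foxp3, the factor of regulatory T cells, was dim in all groups: its signals ran from 1.7 to 21.9 in STAT5ca tumours and from 5.9 to 21.8 in STAT5Δ750 tumours, against 24.5 to 37.5 in glands. The groups did not overlap, yet the change of -1.002 ± 0.31 in STAT5ca tumours (adjusted p = 0.0359) was lost without STAT5ca_169, STAT5ca_171 or any 1 gland (adjusted p = 0.0516 to 0.188), with median scaling (adjusted p = 0.120) and with quantile normalization (adjusted p = 0.223), at an offset of 1 (0.0700) and in the fit to 2 groups (0.0702). In STAT5Δ750 tumours it was -0.87 ± 0.31 (adjusted p = 0.0701), and passed without STAT5ca_159 or STAT5Δ750_178 (adjusted p = 0.0388 and 0.0462). It passed also at -1.21 with the beta-actin covariate (adjusted p = 0.0192), with array weights (0.0140), in the fit to 2 groups (0.0306), at an offset of 32 (0.0433) and without STAT5ca_124, STAT5ca_177 and STAT5Δ750_254 (0.0490). Bcl11b, a factor that fixes T cell identity, had signals of 12.9 or less on all 16 arrays and did not pass, at -0.49 ± 0.30 (adjusted p = 0.303) and -0.55 ± 0.30 (adjusted p = 0.241).

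Fewer of the cytotoxic and NK cell genes passed, 3 of the 7 in each comparison, and the median change was -1.24 in STAT5ca and -1.53 in STAT5Δ750 tumours. Klrd1, the CD94 receptor of NK cells, had a lowest, median and highest signal of 8.0, 15.6 and 86.3 in STAT5ca tumours and of 3.8, 22.2 and 128 in STAT5Δ750 tumours, against 331, 474 and 270.3 in glands 1, 4 and 6. The groups did not overlap and the change was -3.52 ± 0.64 (adjusted p = 0.0013) and -3.46 ± 0.66 (adjusted p = 0.0020). Nkg7, a granule protein of cytotoxic cells, changed by -2.79 ± 0.70 (adjusted p = 0.0126) and -3.05 ± 0.72 (adjusted p = 0.0087), and the tumours did not reach the glands, though STAT5ca_177 stood at 196 against 267 on the lowest gland. Without gland 4 the Nkg7 changes of -2.62 and -2.88 missed the threshold (adjusted p = 0.0718 and 0.0531), as did the STAT5ca change of -2.76 with the beta-actin covariate (adjusted p = 0.107).

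Gzma, which encodes granzyme A, had a lowest, median and highest signal of 0.8, 10.7 and 108 in STAT5ca tumours and of 1.6, 7.15 and 16.9 in STAT5Δ750 tumours, against 99.4, 65.7 and 216 in glands 1, 4 and 6. STAT5ca_169 was the array that overlapped the glands. The change was -2.46 ± 0.61 (adjusted p = 0.0108) in STAT5ca tumours and -3.005 ± 0.62 (adjusted p = 0.0036) in STAT5Δ750 tumours. In STAT5ca tumours it was -2.01 without gland 6 and -2.60 with the beta-actin covariate, both short of the threshold (adjusted p = 0.0776 and 0.0765). Gzmb, granzyme B, had a lowest, median and highest signal of 1.2, 9.8 and 124.5 in STAT5ca tumours and of 0.8, 13 and 18.8 in STAT5Δ750 tumours, against 48.3, 42.7 and 31.9 in glands 1, 4 and 6. STAT5ca_169 at 124.5 and STAT5ca_177 at 83.5 were above every gland, 2.58 and 1.73 times the highest, and all 6 STAT5Δ750 arrays were below the lowest. The Gzmb change was -0.75 ± 0.69 (adjusted p = 0.526) and -1.52 ± 0.70 (adjusted p = 0.160), neither past the threshold. The STAT5Δ750 change passed at the same -1.52 in the fit to 2 groups (adjusted p = 0.0205) and at -1.65 with array weights (0.0117). The STAT5ca change passed at -1.25 with array weights (adjusted p = 0.0398), but was 0.0824 with the beta-actin covariate (adjusted p = 0.977).

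Klrk1, the activating receptor NKG2D, had a lowest, median and highest signal of 4.0, 23.1 and 258 in STAT5ca tumours and of 14.9, 20.8 and 38.5 in STAT5Δ750 tumours, against 82.1, 75.6 and 81.8 in glands 1, 4 and 6. STAT5ca_177 was 3.14 times the highest gland, and the other 12 tumour arrays were below every gland. The change was -1.24 ± 0.67 (adjusted p = 0.249) in STAT5ca and -1.53 ± 0.69 (adjusted p = 0.148) in STAT5Δ750 tumours. Without STAT5ca_177 the STAT5ca change was -1.71 and passed (adjusted p = 0.0087). The STAT5Δ750 change, whose arrays were then the same, stayed at -1.53 and passed as well (adjusted p = 0.0182), the 3 groups sharing 1 estimate of the spread.

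Ifng, interferon gamma, was dim: 37.9 on STAT5ca_177, at most 10.1 on the other tumour arrays, and 8.0 to 13.9 in glands. Its change was -0.34 ± 0.38 (adjusted p = 0.621) and -0.93 ± 0.39 (adjusted p = 0.120), and the second passed without STAT5ca_177, at the same -0.93 (adjusted p = 0.0146), with array weights (0.0040) and in the fit to 2 groups (0.0091). Prf1, perforin, overlapped between groups at 8.7 to 22.5 in STAT5ca tumours, 9.0 to 33.2 in STAT5Δ750 tumours and 21.6 to 35.1 in glands. It changed by -0.51 ± 0.25 (adjusted p = 0.197) and -0.34 ± 0.26 (adjusted p = 0.416). With the mean of its 2 probe sets the change was -0.78 (adjusted p = 0.0151) and -0.66 (adjusted p = 0.0409).

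Between the 2 kinds of tumour no T or NK cell gene differed past the threshold. STAT5ca minus STAT5Δ750 changes ran from -0.49 for Cd5 to 0.77 for Gzmb with a median of -0.09, 21 of them negative and 13 positive, against a median over all genes of -0.02. The limma test called 0 of the 34 genes and 0% of all genes, and at an unadjusted p under 0.05 it gave 0 of the 34 against 686 of all genes. For none of the 34 did the 2 kinds of tumour separate without overlap, against 0.0645% of all genes lower and 0.0645% higher. Every one of the 34 intervals at 95% held 0, but their half-widths ran from 0.43 to 1.86 with a median of 0.94. The intervals were not adjusted for the number of genes, and these arrays do not exclude true differences of about that size. The widest were those of Cd4 and Cd3d, and the narrowest was that of Prf1. The Ifng difference of 0.59 had an interval of -0.06 to 1.24, with its highest signal on STAT5ca_177.

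Arrays of the same kind of tumour differed among themselves. STAT5Δ750_254 had the highest signal of its group for 29 of the 34 genes. In the STAT5ca group STAT5ca_177 was highest for 17 genes, STAT5ca_124 for 9 and STAT5ca_169 for 4. A signal of more than 35.4, which 40% of the deposited signals did not exceed, was found for 25 of the genes on STAT5Δ750_254, 17 on STAT5ca_177 and 16 on STAT5ca_124, for 2 to 9 on the other 10 tumour arrays and for 28 to 31 on the glands. All 34 genes together summed to 38.4% of the gland mean on STAT5Δ750_254, 32.3% on STAT5ca_177 and 19.8% on STAT5ca_124, against 5.85% to 10.8% on the remaining tumours.

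**Figure D4:**
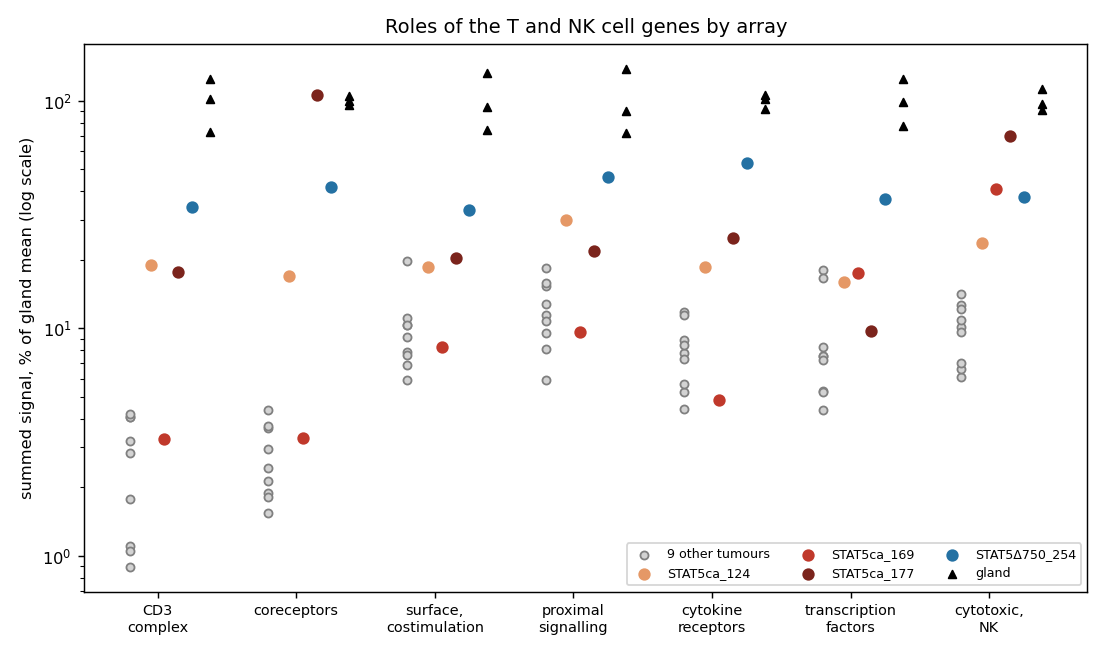
Summed signal of each role group of T and NK cell genes as a percentage of the gland mean (log axis), with STAT5ca_124, STAT5ca_169, STAT5ca_177 and STAT5Δ750_254 marked, the 9 other tumours in grey and the 3 glands as triangles. STAT5Δ750_254 lies between 33.0% and 53.3% in all 7 roles, whereas STAT5ca_177 runs from 9.70% for transcription factors to 106% for coreceptors. Cd4 gave 729 of the summed coreceptor signal of 853 on STAT5ca_177.

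These arrays differed in which genes were high. On STAT5Δ750_254 the roles stood close together, with the CD3 complex at 34.1% of the gland mean, coreceptors at 41.7%, cytokine receptors at 53.3% and cytotoxic and NK cell genes at 37.8%. STAT5ca_124 was lower but also even, from 15.9% for the transcription factors to 29.9% for proximal signalling. On STAT5ca_177 the CD3 complex stood at 17.6% and the coreceptors at 106%, with Cd4 at 729 but Cd8a at 60.4 and Cd8b1 at 63.5. Its cytotoxic and NK cell genes stood at 70.3%, with Klrk1 at 258 and Nkg7 at 196 but Gzma at 0.8. STAT5ca_169 had its CD3 complex at 3.27% and its cytotoxic and NK cell genes at 41.0%, with Gzma and Gzmb at 108 and 124.5.

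Most genes listed for B cells and for lymphoid tissue were lower in the tumours as well. The part of these and other cell markers in the differences was not tested. Of 17 B cell genes, 13 were lower in each kind of tumour, with medians of -3.42 and -3.70: Ms4a1, which encodes CD20, changed by -4.86 ± 0.92 in STAT5ca and -4.58 ± 0.94 in STAT5Δ750 tumours, and the B cell receptor component Cd79a by -4.85 ± 0.91 and -4.42 ± 0.93. Of 8 genes listed for lymphoid tissue, which include Ltb and Lta, genes of lymphocytes themselves, 6 were lower in each kind of tumour. Their summed signal was 0.724% to 119% of the gland mean in STAT5ca tumours and 1.54% to 32.2% in STAT5Δ750 tumours. In glands it ran from 92.6% to 109.5%. The 119% was on STAT5ca_177, where Cxcl13 had a signal of 4056 but Cd209b one of 1.4. Cd209b, a lectin of sinus and marginal zone macrophages in lymphoid organs, had signals of 228 on STAT5ca_124, 713 on STAT5Δ750_254 and 24.9 or less on the other tumours, against 1995 to 2479 in glands. Marco, a scavenger receptor of such macrophages, had signals of 5085 on STAT5ca_177, 245 on STAT5ca_124, 351.5 on STAT5Δ750_254 and 1.8 or less on the other tumours, against 2087 to 2793 in glands. The inguinal mammary gland of the mouse encloses a lymph node, and the labels do not say whether nodes were removed.

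**Figure D5:**
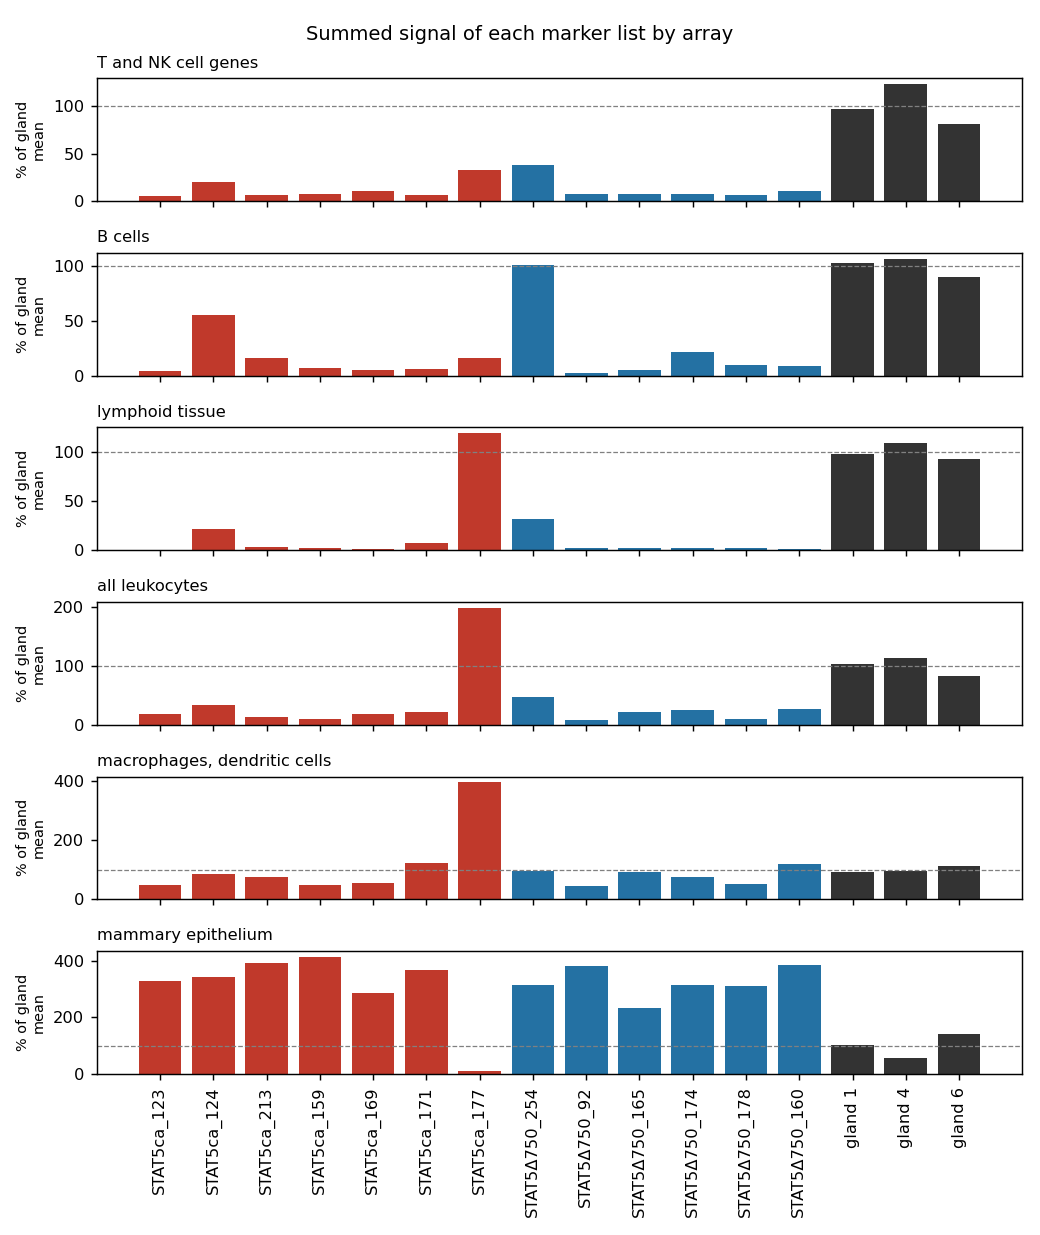
Summed signal of the T and NK cell genes and of 5 marker lists on each array as a percentage of the gland mean (dashed line at 100%); red bars are STAT5ca tumours, blue bars STAT5Δ750 tumours and black bars glands. STAT5Δ750_254 and STAT5ca_124 are the highest tumours for B cell genes, and STAT5ca_177 is the highest for macrophage and leukocyte genes and the lowest for epithelial genes.

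Genes of other leukocytes were counted in the same way. Of 16 macrophage and dendritic cell genes, 1 was lower in STAT5ca and 2 in STAT5Δ750 tumours, with medians of -0.02 and -0.34, and their summed signal was 49.2% to 396% of the gland mean in STAT5ca tumours, 43.7% to 119% in STAT5Δ750 tumours and 93.6% to 112% in glands. Of 11 genes found in leukocytes at large, 2 and 6 were lower, with medians of -2.36 and -2.79 and sums of 9.61% to 199%, 8.81% to 47.5% and 83.8% to 113% of the gland mean in STAT5ca tumours, STAT5Δ750 tumours and glands. Among these Ptprc, which encodes the leukocyte antigen CD45, had signals of 157 to 5469 in STAT5ca tumours, 195 to 1303 in STAT5Δ750 tumours and 3194 to 4632 in glands, with changes of -2.81 ± 0.84 (adjusted p = 0.0310) and -3.04 ± 0.86 (adjusted p = 0.0235). Adipocyte genes were lower too (8 and 7 of 8), as were those of skeletal muscle (10 and 9 of 10) and endothelium (6 and 6 of 10). Of 11 epithelial genes, 1 and 3 were higher and 0 lower. Of all genes, 11.1% and 11.2% were lower and 4.71% and 5.41% higher in STAT5ca and STAT5Δ750 tumours.

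The counts of T and NK cell genes were taken again without the arrays that stood apart. Without STAT5ca_124 and STAT5Δ750_254, 28 genes were lower in STAT5ca and 27 in STAT5Δ750 tumours, where 11.1% and 11.2% of all genes were lower. Without these and STAT5ca_177, an alternative chosen after the data were seen, 30 were lower in each, where 14.9% and 14.6% of all genes were lower, with medians of -3.43 and -3.33.

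Other genes of the same pathways were read from lists of their own. Of 16 measured partners in T cell receptor signalling, 6 were lower in STAT5ca and 5 in STAT5Δ750 tumours and 0 higher, with medians of -1.51 and -1.85. Prkcq, a protein kinase C of T cells, changed by -5.01 ± 0.64 (adjusted p = 6.4e-05) and -4.81 ± 0.65 (adjusted p = 0.00015), Txk, a Tec family kinase, by -2.92 ± 0.31 and -2.90 ± 0.32, Ptpn22, a phosphatase that restrains the receptor, by -3.68 ± 0.75 and -3.85 ± 0.77, and Sit1, an adaptor, by -2.54 ± 0.44 and -2.49 ± 0.45. All 4 passed in both comparisons. The list summed to 222% of the gland mean on STAT5ca_177, against 21.4% to 47.3% on the other tumours. Sla and Lcp2, adaptors, and Ptpn6, a phosphatase, named here after their values were seen, had signals of 2160, 1496 and 3327 there, above every gland. On the same array Prkcq, Txk, Sit1 and Ptpn22 had signals of 20.2, 8.7, 13.1 and 163, below every gland. The macrophage and dendritic cell genes summed to 396% of the gland mean there, and their part in the 222% was not tested.

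Of 29 further T and NK lineage genes, 19 and 18 were lower and 0 higher, with medians of -1.60 and -1.62. S1pr1, which lets lymphocytes leave lymph nodes, changed by -2.25 ± 0.22 and -2.02 ± 0.22, Cd96, a receptor of T and NK cells, by -3.05 ± 0.38 and -2.76 ± 0.39, Slamf1, a costimulatory receptor, by -2.64 ± 0.37 and -2.64 ± 0.38, and Il18r1, a chain of the interleukin 18 receptor, by -3.24 ± 0.49 and -2.28 ± 0.50. Ccr7, which guides naive T cells into lymph nodes and is named here after its values were seen, changed by -5.13 ± 0.78 (adjusted p = 0.00029) and -5.18 ± 0.80 (adjusted p = 0.00041). Its highest tumours were STAT5ca_124 at 81.7 and STAT5Δ750_254 at 109.7, against 502, 762 and 391 on glands 1, 4 and 6.

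In the pathway of the common gamma chain cytokines, 6 of 20 genes were lower in each kind of tumour and 0 higher, with medians of -0.76 and -0.89. Il7, the cytokine of stromal cells that sustains T cells, changed by -2.20 ± 0.28 (adjusted p = 6.1e-05) in STAT5ca and -1.96 ± 0.29 (adjusted p = 0.00027) in STAT5Δ750 tumours, Il2ra, the alpha chain of the interleukin 2 receptor, by -1.51 ± 0.27 and -1.83 ± 0.27, and Jak1, a kinase bound to these receptors, by -1.12 ± 0.21 and -1.34 ± 0.22. Stat5b changed by -0.93 ± 0.33 (adjusted p = 0.0732) and -1.41 ± 0.34 (adjusted p = 0.0104), and Stat5a by -1.01 ± 0.53 (adjusted p = 0.230) and -1.35 ± 0.54 (adjusted p = 0.105).

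By position, 6 of the 34 genes lie on chromosome 6 (Cd4, Cd8a, Cd8b1, Cd27, Klrd1 and Klrk1) and 5 each on chromosomes 1 and 9. RefSeq gave 33 promoter windows for 25 of the 36 genes, Lck and Il2rg among them, and each window of 300 bases was searched on both strands. TTCNNNGAA was in 6 of the 33 windows (18.2%), those of Cd3d, Foxp3, Gzmb, Ifng, Il7r and Nkg7, against 8.30% of all 32851 windows. CAGGAAG was in 14 (42.4% against 13.3%), TGTGGTT in 5 (15.2% against 5.27%) and CAGGTG in 16 (48.5% against 20.2%). CTTTGAA, a TCF motif, was in 2 (6.06% against 5.14%), and TATAAA, the TATA box, in 5 (15.2% against 13.6%). Of the 6 genes with TTCNNNGAA, Cd3d, Il7r and Nkg7 passed in both comparisons, Foxp3 in STAT5ca tumours, and Gzmb and Ifng in neither; these matches are letters in a window and do not show a bound site.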

How the data were processed

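Total RNA from 7 STAT5ca tumours, 6 STAT5Δ750 tumours and 3 normal mammary glands was labelled as biotin cRNA and hybridised to Affymetrix Mouse Genome 430A 2.0 arrays, per the labels' protocols. The authors deposited 1 MAS5 signal, a linear intensity, for each array and each of 22690 probe sets, with MAS5 named without a version in the submitters' processing notes. Array medians ran from 57.3 to 90.7. The number of arrays limits the precision.

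Of the probe sets, 20393 were given 1 gene, 691 several and 1606 none in the array's annotation; symbols were checked against RefSeq (GRCm38.p6) and 0 changed. A gene was represented by its brightest probe set, by mean log2 value. Deposited signals were used as log2(signal + 8) with no further scaling and no filter on low values, so that every member with a probe set was tested; 29 of the 34 would pass a filter at the 40th percentile of signals (35.4) on at least 3 arrays. Groups came from the sample labels. limma 3.58.1 in R 4.3.3 was fitted to 12394 genes in 1 model with 3 groups (13 residual and 2.76 prior degrees of freedom), and two-sided p-values were corrected for the number of genes (Benjamini-Hochberg) in each of 3 comparisons. Python 3.11.15 was used for summaries and motif searches. The fitting code was tested on simulated data.

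Alternatives were median scaling, quantile normalization, offsets of 1 and 32, 2 filters, other probe sets per gene, fits to 2 groups, a trended and robust limma fit, array quality weights, 3'/5' covariates and arrays left out. All members are described, but lowest, median and highest tumour signals are given only for some. These were meant to be the 1 or 2 brightest of each role and those not following it. The rule was not kept throughout: Cd28, with the largest change of its role, is given so, while the brighter Cd2 and Cd5 are not. Klrd1 is given so, while the brighter Nkg7 is not. Of the other lists, up to 4 genes with the smallest adjusted p in either gland comparison were named, with some fixed names. The members and all lists were chosen with earlier results of these data known. Promoter sequences are RefSeq's.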

Additional observations from a re-analysis of the deposited data

Results flagged for a closer look

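Dixon's test for a stray value was applied to each of the 34 genes in both tumour groups, 68 groups in all, of which chance gives about 1 in 20. It marked 12, each with STAT5Δ750_254 as the high value of the STAT5Δ750 tumours; the genes share this array, so the 12 are not independent. On the log2(signal + 8) scale STAT5Δ750_254 stood at 7.85 for Cd3g, 5.64 for Cd4, 7.03 for Cd8a, 7.50 for Cd8b1, 7.15 for Cd2 and 6.56 for Cd5. It stood at 6.08 for Cd28, 7.75 for Lat, 5.82 for Sh2d1a, 8.91 for Il7r, 5.87 for Eomes and 7.17 for Nkg7. For Lat the other 5 STAT5Δ750 tumours had signals of 19.0 to 32.7, STAT5Δ750_254 had 207 and the glands 398 to 827. On the same array the B cell genes summed to 101% of the gland mean, with Ighm at 7836 and Jchain at 6508.5 but Ms4a1 at 305.5. Cd209b had a signal of 713 there. The part of these genes in the T and NK cell signals was not tested.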

How the results depend on the processing

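No paired analysis was possible because the groups share no replicate numbers. At 27 genes lower in each kind of tumour, the counts ran from 25 to 29 in STAT5ca and from 23 to 29 in STAT5Δ750 tumours with 1 array left out, the medians from -3.17 to -2.81 and from -3.33 to -2.80, and the STAT5ca minus STAT5Δ750 median from -0.27 to 0.25. The lowest counts in STAT5ca tumours were 25 without gland 4 or gland 6, where 6.83% and 8.42% of all genes were lower. In STAT5Δ750 tumours the lowest was 23 without gland 4, where 6.25% of all genes were lower. The highest was 29 in each without STAT5ca_177, where 14.4% of all genes were lower in each. An offset of 1 gave medians of -3.80 and -3.71, and an offset of 32 gave -2.06 and -2.01, by construction. A filter on the mean left 2 genes, both lower (2 and 2), where 7.65% and 8.34% of all genes kept were lower. Array quality weights gave 30 and 31, where 21.9% and 20.7% of all genes were lower. Fits to 2 groups gave 26 and 31, where 9.78% and 14.5% of all genes were lower. Median scaling moved the median of all genes in STAT5ca tumours to 0.17, against -0.03 unscaled, and the T and NK cell median relative to it was -2.998, against -3.02 unscaled; it gave 955 lower and 1238 higher genes, against 1370 and 584 unscaled, and in STAT5Δ750 tumours 1023 and 817, against 1387 and 670. Over all genes, calls in STAT5ca tumours numbered 2976 without STAT5ca_177, 1138 without gland 1, 1061 without gland 4, 4722 with array weights, 968 with the beta-actin covariate and 1954 as reported, and in STAT5Δ750 tumours 1111 without gland 1, 1012 without gland 4, 4371 with array weights and 2057 as reported. The sign turned for Zap70 in STAT5Δ750 tumours with median scaling (0.0666), quantile normalization (0.0636) and the Gapdh covariate (0.0774), and with arrays left out (-0.162 to 0.0575), and for Gzmb in STAT5ca tumours with the beta-actin covariate (0.0824). The causes were not tested. Signals near the offset of 8 carry little information on change.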
